A study of Mus musculus with 12 samples.

Results

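The 39 genes described here are markers of macrophages, monocytes and neutrophils, measured in 12 RNA-seq libraries of cells sorted from mouse tumours as CD8+ T cells. They were found by matching a list of 39 symbols to the gene names of the deposited table, and each symbol matched 1 of its 56980 genes. All 39 of the 39 were among the 20411 genes that passed the filter on low counts. The comparisons were between 4 groups of 3 libraries: asGM1-positive (asGM1+) and asGM1-negative (asGM1-) cells of Flt3L Panc02 tumours, and asGM1+ and asGM1- cells of Panc02 tumours. Panc02 is a mouse pancreatic cancer line, Flt3L is the cytokine that drives dendritic cell development, and asGM1 (asialo-GM1) is a surface glycolipid. All hosts were wild-type C57BL/6J mice, with no age given, and every library was gated as DAPI-, CD45.2+ and CD8+. The gate names no T cell receptor marker. The labels state neither whether the Flt3L line was 1 clone nor whether replicates were separate mice, so p-values measure the spread between these samples, which may be technical.

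Macrophages and monocytes clear debris, take up lipids and antibody-coated particles, and make complement C1q and apolipoprotein E, while neutrophils carry the calcium-binding S100A8 and S100A9 proteins. CSF1R is the receptor that keeps macrophages alive. Several genes on the list are shared with other cells: Ly6c2 and Lgals3 are also expressed by activated CD8+ T cells, and Tyrobp, Cd68 and Sirpa also by dendritic cells. In bulk libraries, fewer cells of a type and less RNA per cell cannot be told apart.

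Library totals lay between 98663008 and 102896605 counts. Cd8a, the gene for a chain of the sorted CD8 antigen, lay between 1569 and 2562 CPM (counts scaled to a common library size, with TMM factors) in the 12 libraries. Of the macrophage-defining genes, C1qa (13.2 to 141 CPM), Csf1r (13.3 to 102 CPM), Cd68 (29.4 to 89.0 CPM) and Adgre1 (4.18 to 41.0 CPM) were detected in every library, and Mrc1 was low, at 0.0283 to 2.24 CPM. The monocyte genes Chil3, F13a1 and Vcan had medians of 1.05, 1.21 and 0.733 CPM. Neutrophil genes gave a mixed picture. S100a8 and S100a9 did not exceed 2.31 and 3.65 CPM in any library. Of 15 further neutrophil genes 9 were tested, and Ly6g, Camp, Ngp, Elane, Mpo and Prtn3, which mark neutrophils and their precursors, did not pass the filter, with Camp and Elane at 0 in all 12 libraries. Among those tested, Retnlg, Mmp8 and Lcn2 did not exceed 0.341, 0.209 and 0.301 CPM. The chemokine receptor gene Cxcr2 ranged from 0.324 to 2.06 CPM and the protease gene Mmp9 from 1.54 to 6.55 CPM. Hdc ranged from 2.28 to 6.38 CPM, and Ltf from 0.176 to 7.94 CPM, highest in Panc02 asGM1- replicate 3. Acod1, an enzyme that activated macrophages also make, ranged from 4.02 to 21.1 CPM. Il1r2, a decoy receptor for interleukin-1 that is not limited to neutrophils, ranged from 17.5 to 201 CPM. The sum of the plasmacytoid dendritic cell list (6 genes) was 106, 116 and 108 CPM in Flt3L Panc02 asGM1+ libraries, against 848, 775 and 750 CPM in Flt3L Panc02 asGM1- libraries. It was 40.0, 32.2 and 46.4 CPM in Panc02 asGM1+ libraries, against 243, 169 and 191 CPM in Panc02 asGM1- libraries.

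The members spanned a wide range of abundance. Of the 39, 17 had a median of at least 10 CPM over the 12 libraries, 16 a median between 1 and 10 CPM, and 6 a median under 1 CPM. Per kilobase of exon, Ly6c2 (median 426 CPM per kb) and Lgals3 (404 CPM per kb) stood highest, followed by Spp1 (212 CPM per kb), Apoe (128 CPM per kb), Lyz2 (125 CPM per kb) and C1qb (108 CPM per kb). Cd8a had 557 CPM per kb on the same scale. Of the 39 members, 34 were highest in 1 of a pair of libraries, Panc02 asGM1+ replicate 1 (25 members) or replicate 2 (9 members). Panc02 asGM1+ replicate 3 was the lowest library of that group for 35 of the 39. These counts were not made over all genes, so whether they are particular to the members was not tested.

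**Figure D1:**
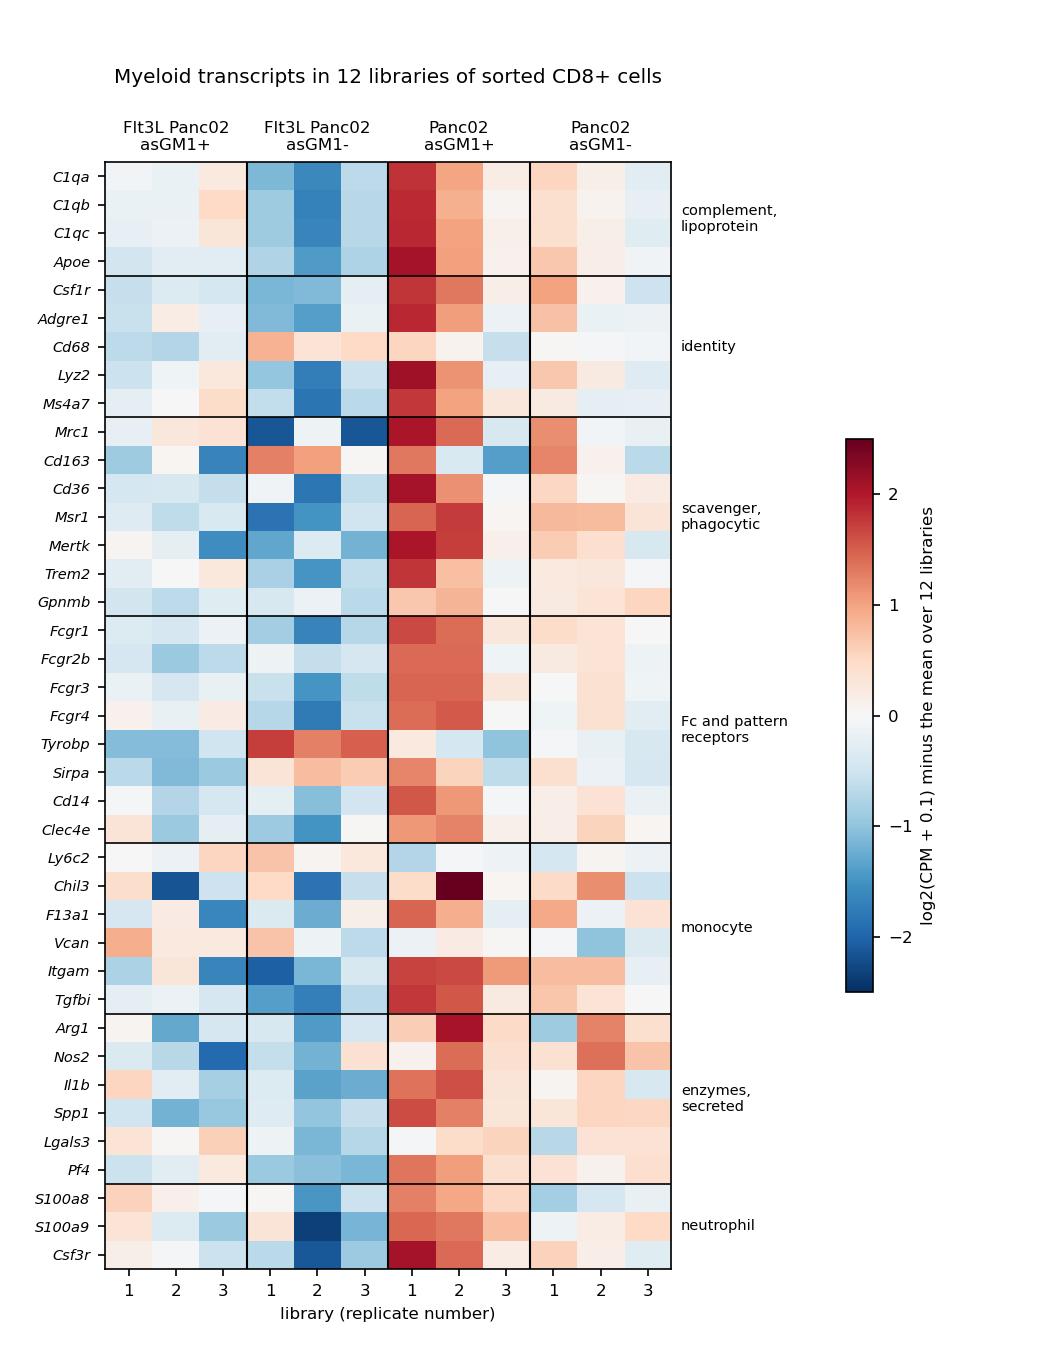
Levels of the 39 members (rows, grouped by role) in the 12 libraries (columns), as log2(CPM + 0.1) minus the member's mean over the libraries, red high and blue low. Most rows are reddest in Panc02 asGM1+ replicates 1 and 2 and bluest in Flt3L Panc02 asGM1-, and Cd68, Tyrobp and Sirpa are red in Flt3L Panc02 asGM1-.

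C1qa, C1qb and C1qc encode the 3 chains of C1q, which starts the classical complement pathway, and in tissues they are made largely by macrophages. C1qa had 38.7, 36.03 and 47.9 CPM in Flt3L Panc02 asGM1+ libraries, against 18.4, 13.2 and 25.8 CPM in Flt3L Panc02 asGM1- libraries. It had 141, 79.6 and 46.1 CPM in Panc02 asGM1+ libraries, against 58.3, 44.8 and 33.1 CPM in Panc02 asGM1- libraries. The asGM1+ libraries stood above the asGM1- libraries without overlap in Flt3L Panc02 tumours, and overlapped them in Panc02 tumours. C1qb ranged from 37.3 to 442 CPM and C1qc from 19.7 to 231 CPM, with the same library highest and the same library lowest (Flt3L Panc02 asGM1- replicate 2).

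The chains kept nearly constant proportions while their level changed. C1qa varied 10.7-fold between its highest and its lowest library. The ratio of C1qb to C1qa varied 1.31-fold, between 2.73 and 3.57, and that of C1qc to C1qa varied 1.32-fold, between 1.39 and 1.83. Apoe, which encodes the lipid carrier apolipoprotein E, had 225, 256 and 255 CPM in Flt3L Panc02 asGM1+ libraries, against 1306, 627 and 331 CPM in Panc02 asGM1+ libraries. It had 184, 115 and 180 CPM in Flt3L Panc02 asGM1- libraries, against 491, 346 and 289 CPM in Panc02 asGM1- libraries. In both gates the Flt3L Panc02 libraries lay below the Panc02 libraries without overlap.

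The stretches of 250 bases before the gene starts of C1qb, C1qc, Lyz2 and Cd68 are shown. The first 3 moved together over all libraries, and Cd68 departed from them in the Flt3L Panc02 asGM1- libraries. They come from the RefSeq promoter table of build GRCm38.p6, in which 30 of the 39 members matched, and each lies on the minus strand. Capitals mark a match to GAGGAAG (a core of sites of the myeloid factor PU.1, read as CTTCCTC on the other strand) or to TTGCNNAA (a C/EBP core), searched on both strands. C1qb lies at chr4:136886201-136886450, C1qc at chr4:136892915-136893164, Lyz2 at chr10:117282273-117282522 and Cd68 at chr11:69666171-69666420.
C1qb: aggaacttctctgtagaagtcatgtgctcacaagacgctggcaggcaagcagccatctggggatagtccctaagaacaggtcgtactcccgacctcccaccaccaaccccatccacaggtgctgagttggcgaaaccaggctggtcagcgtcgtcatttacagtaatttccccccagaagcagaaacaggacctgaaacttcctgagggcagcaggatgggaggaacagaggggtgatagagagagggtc
C1qc: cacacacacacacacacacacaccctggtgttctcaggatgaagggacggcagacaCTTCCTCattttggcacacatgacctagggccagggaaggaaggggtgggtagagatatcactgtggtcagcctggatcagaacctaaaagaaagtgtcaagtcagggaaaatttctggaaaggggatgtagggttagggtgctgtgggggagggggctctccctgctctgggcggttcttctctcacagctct
Lyz2: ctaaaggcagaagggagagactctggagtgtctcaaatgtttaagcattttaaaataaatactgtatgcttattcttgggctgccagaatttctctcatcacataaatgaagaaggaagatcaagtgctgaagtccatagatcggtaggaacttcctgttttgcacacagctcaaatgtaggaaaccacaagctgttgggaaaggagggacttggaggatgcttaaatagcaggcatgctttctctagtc
Cd68: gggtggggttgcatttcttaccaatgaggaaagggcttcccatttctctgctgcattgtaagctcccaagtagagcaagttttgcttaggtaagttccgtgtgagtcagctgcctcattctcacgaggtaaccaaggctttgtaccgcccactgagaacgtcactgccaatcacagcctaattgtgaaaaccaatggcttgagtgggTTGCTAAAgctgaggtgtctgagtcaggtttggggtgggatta
C1qc held 1 match to GAGGAAG, whose first base lies 194 bases before the start, and Cd68 held 1 match to TTGCNNAA, 43 bases before it. C1qb and Lyz2 held neither string in these windows. GAGGAAG was in 10.6% of 32851 windows of the table, and in at least 1 window of 12% of its 27025 genes and of 13 of the 30 matched members (43.3%). TTGCNNAA was in 9.56% of windows, in 10.8% of genes and in 6 of the 30 (20%). No test was made of these shares, and a match is a string of letters, not a shown binding site.

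Among the identity genes, Lyz2 (lysozyme M) had 126, 171 and 219 CPM in Flt3L Panc02 asGM1+ libraries, against 797, 399 and 159 CPM in Panc02 asGM1+ libraries. In asGM1- cells it had 94.1, 55.2 and 127 CPM in Flt3L Panc02 libraries, against 291, 214 and 147 CPM in Panc02 libraries. Csf1r had 19.9, 23.2 and 21.7 CPM in Flt3L Panc02 asGM1+ libraries, against 102, 73.7 and 33.2 CPM in Panc02 asGM1+ libraries, with no overlap. Adgre1, which encodes the macrophage antigen F4/80, and Ms4a7, a membrane protein of macrophages, were highest in the same Panc02 asGM1+ replicate 1, at 41.0 and 37.7 CPM. Cd68, a lysosomal glycoprotein, followed another order. It had 31.2, 29.4 and 39.9 CPM in Flt3L Panc02 asGM1+ libraries, against 89.0, 62.0 and 68.7 CPM in Flt3L Panc02 asGM1- libraries, and every asGM1+ value was below every asGM1- value.

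**Figure D2:**
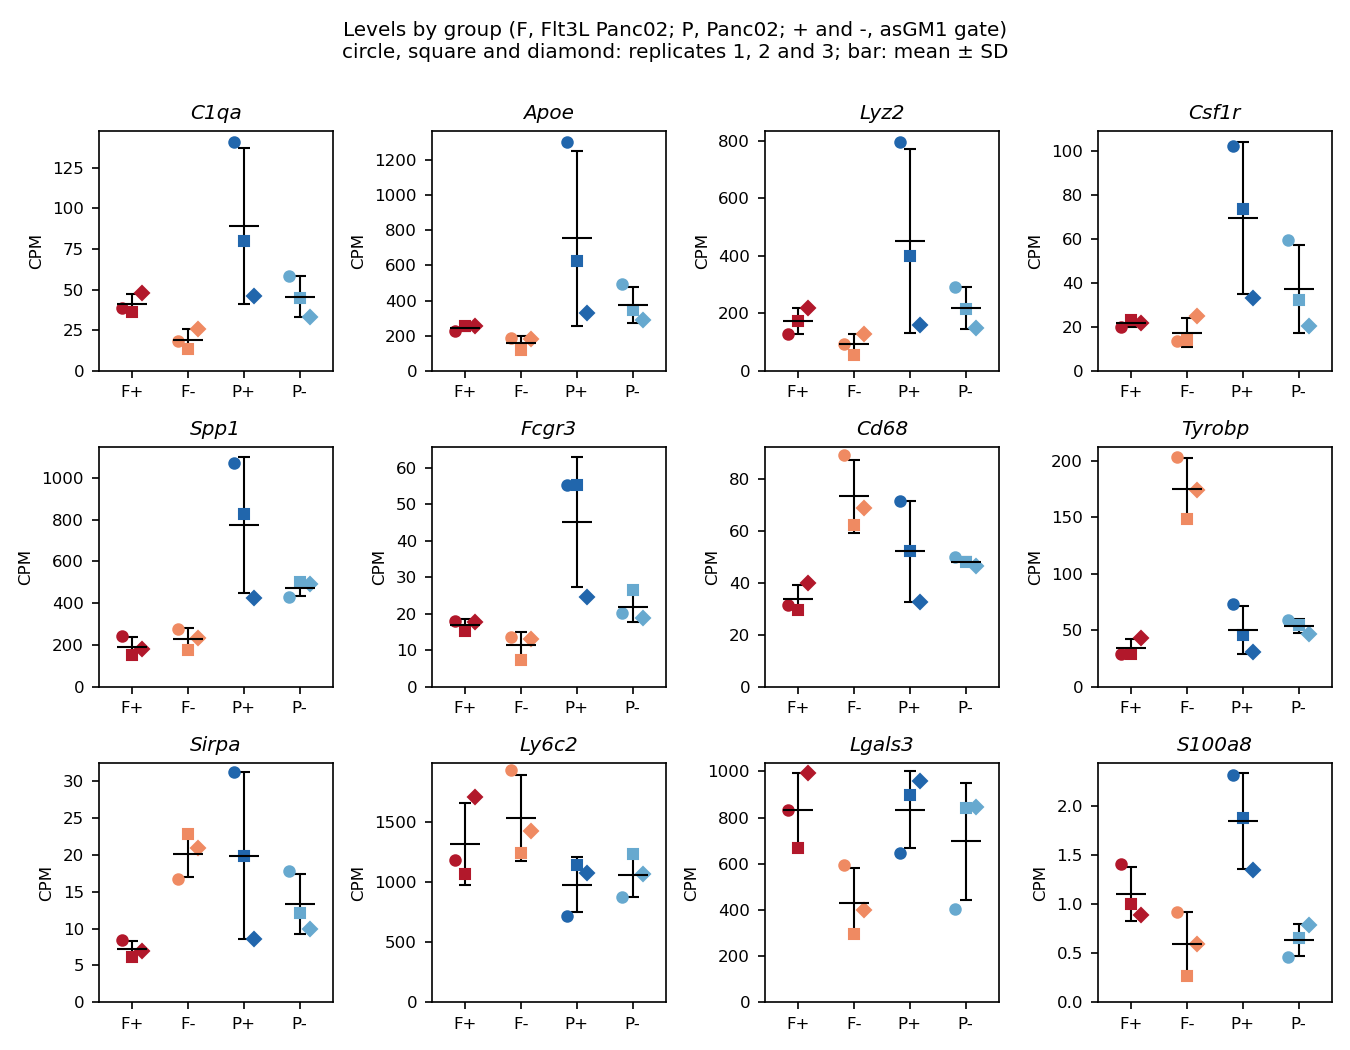
CPM of 12 members in the 4 groups (F, Flt3L Panc02; P, Panc02; + and -, asGM1 gate), with 1 marker per library and the mean ± SD (n = 3). C1qa, Apoe, Lyz2 and Csf1r spread widely in Panc02 asGM1+, where replicates 1 and 2 are high, and Tyrobp is high in Flt3L Panc02 asGM1- alone.

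The scavenger and phagocytic genes were scarcer. Msr1, the class A scavenger receptor, had 2.89, 2.29 and 2.74 CPM in Flt3L Panc02 asGM1+ libraries, against 10.1, 12.3 and 3.72 CPM in Panc02 asGM1+ libraries. It had 0.933, 1.22 and 2.54 CPM in Flt3L Panc02 asGM1- libraries, against 6.43, 6.32 and 4.51 CPM in Panc02 asGM1- libraries. In both gates all Flt3L Panc02 values were lower than all Panc02 values. Trem2, a lipid-sensing receptor of macrophages, ranged from 2.37 to 23.5 CPM, and Cd36, a fatty acid and lipoprotein receptor, from 0.648 to 10.96 CPM. Gpnmb, a glycoprotein of lipid-laden macrophages, varied 2.96-fold. Mrc1 (mannose receptor), Cd163 (haemoglobin scavenger receptor) and Mertk (a receptor for apoptotic cells) had medians of 0.428, 0.621 and 0.177 CPM. In Flt3L Panc02 asGM1- cells the mean of Mertk was at or under the floor of 3 fragments, which corresponds to 0.0752 to 0.0900 CPM depending on the library, and no fold change is given against that group. Mrc1 was under the floor in 2 of the 3 libraries of that group.

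The Fc receptor genes bind antibody: Fcgr1, Fcgr3 and Fcgr4 encode activating receptors and Fcgr2b the inhibitory one. Fcgr3 had 17.98, 15.2 and 17.8 CPM in Flt3L Panc02 asGM1+ libraries, against 55.4, 55.3 and 24.5 CPM in Panc02 asGM1+ libraries. Fcgr2b had 7.40, 5.17 and 6.34 CPM in Flt3L Panc02 asGM1+ libraries, against 26.6, 26.8 and 9.21 CPM in Panc02 asGM1+ libraries. Both sets were separate. The Fcgr genes resemble each other in sequence, as do Ly6c2 and Ly6c1 and Lyz2 and Lyz1, and how the authors' counting split shared reads is uncertain.

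Tyrobp encodes DAP12, the signalling adaptor of TREM and killer receptors of myeloid, NK and plasmacytoid dendritic cells. It had 29.2, 29.2 and 43.4 CPM in Flt3L Panc02 asGM1+ libraries, against 203, 148 and 174 CPM in Flt3L Panc02 asGM1- libraries. It had 72.9, 45.7 and 30.8 CPM in Panc02 asGM1+ libraries, against 59.4, 54.3 and 46.9 CPM in Panc02 asGM1- libraries. The Flt3L Panc02 asGM1- libraries stood above all 9 others. Sirpa, the receptor for the "don't eat me" protein CD47, had 8.41, 6.18 and 7.004 CPM in Flt3L Panc02 asGM1+ libraries, against 16.7, 22.8 and 20.9 CPM in Flt3L Panc02 asGM1- libraries. Cd14, the co-receptor for bacterial lipopolysaccharide, ranged from 5.93 to 37.0 CPM and Clec4e, the pattern receptor Mincle, from 0.370 to 3.02 CPM.

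Of the monocyte genes, Ly6c2 was the most abundant member and varied 2.70-fold. It had 1187, 1065 and 1705 CPM in Flt3L Panc02 asGM1+ libraries, against 1929, 1246 and 1422 CPM in Flt3L Panc02 asGM1- libraries. In Panc02 tumours it had 715, 1146 and 1078 CPM in asGM1+ libraries, against 873, 1234 and 1064 CPM in asGM1- libraries. Its lowest library was Panc02 asGM1+ replicate 1, where C1qa was highest. Tgfbi, a secreted matrix protein, had 33.9, 36.4 and 30.1 CPM in Flt3L Panc02 asGM1+ libraries, against 138, 119 and 46.8 CPM in Panc02 asGM1+ libraries. Itgam (CD11b, an integrin chain) ranged from 1.07 to 15.5 CPM.

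Among genes for enzymes and secreted proteins, Spp1 (osteopontin) had 244, 152 and 179 CPM in Flt3L Panc02 asGM1+ libraries, against 1071, 826 and 425 CPM in Panc02 asGM1+ libraries. In asGM1- cells it had 276, 174 and 233 CPM in Flt3L Panc02 libraries, against 430, 503 and 492 CPM in Panc02 libraries. All Flt3L Panc02 values lay below all Panc02 values in both gates. Lgals3 (galectin-3) had 833, 669 and 993 CPM in Flt3L Panc02 asGM1+ libraries, against 596, 297 and 399 CPM in Flt3L Panc02 asGM1- libraries. Arg1 and Nos2, enzymes that compete for arginine, and Il1b, an inflammatory cytokine, were each highest in Panc02 asGM1+ replicate 2, at 29.7, 3.61 and 53.9 CPM. Pf4, a chemokine of platelets that macrophages also express, ranged from 0.246 to 1.83 CPM, and of 6 platelet genes 3 passed the filter. Of these, Itga2b, an integrin chain of platelets, ranged from 0.176 to 1.97 CPM, highest in Panc02 asGM1+ replicate 1 as Pf4 was, Ppbp reached 0.132 CPM and Gp1bb 0.297 CPM, while Gp9, Treml1 and Gp6 did not pass.

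Of the neutrophil members, Csf3r, the receptor for the growth factor G-CSF, had 3.48, 3.07 and 2.12 CPM in Flt3L Panc02 asGM1+ libraries, against 1.93, 0.648 and 1.62 CPM in Flt3L Panc02 asGM1- libraries. It had 13.6, 8.52 and 3.58 CPM in Panc02 asGM1+ libraries, against 4.74, 3.54 and 2.52 CPM in Panc02 asGM1- libraries. S100a8 had 2.31, 1.87 and 1.34 CPM in Panc02 asGM1+ libraries, against 0.464, 0.658 and 0.789 CPM in Panc02 asGM1- libraries, without overlap. Csf3r is also expressed by monocytes and macrophages.

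The first comparison asks how the gates differ within Flt3L Panc02 tumours. There, Tyrobp, Cd68 and Sirpa were lower in asGM1+ than in asGM1- cells. C1qa, C1qb, C1qc, Ms4a7, Lgals3, Pf4 and Tgfbi had higher values in asGM1+ cells that did not pass the edgeR test without pairing. They did pass with DESeq2. The log2 fold change was -2.37 ± 0.28 (SE) for Tyrobp, -1.13 ± 0.24 for Cd68 and -1.48 ± 0.38 for Sirpa (edgeR quasi-likelihood test, Benjamini-Hochberg adjusted p = 0.000695, 0.0153 and 0.0328). Of the 39 members, 0 were called higher, 3 lower and 36 not, against 8.59% of all genes called in either direction (2.77% higher and 5.83% lower). The median log2 fold change of the members was 0.59, and -0.012 over all genes tested. C1qa, at 1.10 ± 0.36, had an edgeR adjusted p of 0.0872, between 0.00761 and 0.254 over its alternatives. DESeq2 called 10 members and limma-voom 4, which included Lgals3 (higher in asGM1+ cells) and none of the C1q genes. An edgeR fit with the replicate number as a block within tumour type called 11. C1qa, C1qb, C1qc, Ms4a7, Fcgr4, Il1b and Lgals3 were among these, higher in asGM1+ cells, and Cd163 was among them, lower. The labels do not say whether the numbers pair the samples. Without overlap, 13 members were higher in asGM1+ cells and 3 lower, against 11.4% and 17.3% of all genes.

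Several genes of other lists moved with Tyrobp in this comparison. Of 25 further macrophage genes, 22 were tested, 0 were called higher and 3 lower. Among these, Ctsl, a lysosomal protease, had 7.95, 7.11 and 6.80 CPM in asGM1+ libraries, against 90.8, 69.7 and 82.1 CPM in asGM1- libraries. Mpeg1, a pore-forming protein, had 4.75, 6.14 and 4.11 CPM in asGM1+ libraries, against 31.3, 52.7 and 43.4 CPM in asGM1- libraries. Of 10 phagocyte oxidase and transcription factor genes, 3 were called lower (Cybb and Ncf1, of the phagocyte oxidase, and the transcription factor Klf4). Of the 6 plasmacytoid dendritic cell genes, 5 were called lower, as were 6 of the 8 conventional dendritic cell genes. The plasmacytoid marker Siglech had 4.56, 2.33 and 1.60 CPM in asGM1+ libraries, against 290, 263 and 253 CPM in asGM1- libraries. The summed conventional dendritic cell list was 18.2 to 27.4 CPM in asGM1+ libraries, against 109 to 120 CPM in asGM1- libraries. The part of these cell types in the result was not tested.

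The Tyrobp call held in all 15 alternatives run. The Cd68 call ended without Flt3L Panc02 asGM1+ replicate 1 and without replicate 2 of that group (highest adjusted p 0.0598 over its alternatives). The Sirpa call was lost in 5 of the 6 fits with a library removed, and also with no filter on low counts (highest adjusted p 0.103).

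The same gate comparison in Panc02 tumours gave no called member. The edgeR test called 0 of 39, against 0.892% of all genes (0.049% higher and 0.843% lower), although 17 members had an unadjusted p under 0.05, and DESeq2 and limma-voom called 3 and 4, all higher in asGM1+ cells. The median log2 fold change was 0.95, against 0.022 over all genes, and 35 of the 39 values were positive. S100a8 had the smallest p, with a log2 fold change of 1.53 ± 0.43 (edgeR adjusted p = 0.173), followed by Fcgr3 at 1.05 ± 0.31 (edgeR adjusted p = 0.205). C1qa was at 0.97 ± 0.36 (edgeR adjusted p = 0.36), and Tyrobp at -0.10 ± 0.27 (edgeR adjusted p = 0.973). Without overlap, 4 members were higher in asGM1+ cells (Ms4a7, Itgam, S100a8 and S100a9) and 0 lower, against 8.67% and 8.92% of all genes. The 39 members summed to 6158, 4992 and 3501 CPM in asGM1+ libraries, against 3204, 3758 and 3321 CPM in asGM1- libraries.

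Without Panc02 asGM1+ replicate 3, 2 members were called higher. The further macrophage list held 1 call, for Fcer1g, the common signalling chain of Fc receptors, which innate-like T cells also express. It had 240, 201 and 201 CPM in asGM1+ libraries, against 83.4, 111 and 90.2 CPM in asGM1- libraries, a log2 fold change of 1.18 ± 0.16 (edgeR adjusted p = 0.00387). All 6 plasmacytoid dendritic cell genes were called lower in asGM1+ cells here too, while Tyrobp, Cd68 and Sirpa were not called.

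Between tumour types, 12 of the 39 members were lower in asGM1+ cells of Flt3L Panc02 than of Panc02 tumours, and this count moved widely when single libraries were left out. No member was called higher (0 of 39) and 27 were not called, against 6.25% of all genes called in either direction (2.05% higher and 4.2% lower). The called members included Spp1, with a log2 fold change of -2.02 ± 0.30 (edgeR adjusted p = 0.00646), and 3 Fc receptor genes: Fcgr2b at -1.73 ± 0.34, Fcgr1 at -1.53 ± 0.34 and Fcgr3 at -1.41 ± 0.31 (edgeR adjusted p = 0.0174, 0.0257 and 0.0249). The others were Tgfbi, Gpnmb, Apoe, Msr1, Cd14, Sirpa, Csf1r and Itgam, with log2 fold changes between -1.04 and -2.02. C1qa, at -1.12 ± 0.36, was not called (edgeR adjusted p = 0.0873). The median over the members was -1.38, and -0.033 over all genes, and 37 of 39 values were negative. Without overlap, 18 members were lower in Flt3L Panc02 cells and 1, Vcan, higher, against 16.5% and 14.2% of all genes.

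Much of this comparison rested on single libraries. Spp1 was called in each of the 6 runs that left out 1 library, and its adjusted p was 0.0527 in a fit to the compared libraries alone, which called 0 members and 1 of all genes. One member was called without Flt3L Panc02 asGM1+ replicate 3, without Panc02 asGM1+ replicate 1 and without Panc02 asGM1+ replicate 2, while 2 and 5 were called without Flt3L Panc02 asGM1+ replicates 2 and 1. Without Panc02 asGM1+ replicate 3, 25 were called. Other cell markers differed in the same comparison. The summed fibroblast list was 16.2 to 30.8 CPM in Flt3L Panc02 asGM1+ libraries, against 28.0 to 168 CPM in Panc02 asGM1+ libraries, with 2 of its 6 genes called lower, and the tumour and epithelial list summed to 15.5 to 18.8 CPM in Flt3L Panc02 asGM1+ libraries, against 35.9 to 108 CPM in Panc02 asGM1+ libraries. Krt8, a keratin, had 8.80, 7.39 and 6.80 CPM in Flt3L Panc02 asGM1+ libraries, against 70.9, 40.9 and 20.5 CPM in Panc02 asGM1+ libraries. Of the 4 genes of that list tested, Krt8 and Krt18 were called lower and Epcam, an epithelial adhesion molecule, higher, at 6.32, 8.01 and 6.41 CPM in Flt3L Panc02 asGM1+ libraries, against 3.43, 3.25 and 3.27 CPM in Panc02 asGM1+ libraries. Of 12 T cell identity genes, 5 were called higher and 0 lower. The part of these cells in the result was not tested.

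In asGM1- cells, 4 members were called between tumour types, against 3.7% of all genes (1.86% higher and 1.84% lower). Tyrobp was higher in Flt3L Panc02 than in Panc02 tumours, with a log2 fold change of 1.71 ± 0.27 (edgeR adjusted p = 0.00957). Pf4, Msr1 and Tgfbi were lower, at -1.62 ± 0.35, -1.88 ± 0.44 and -1.56 ± 0.36 (edgeR adjusted p = 0.0316, 0.0421 and 0.0407). The median over the members was -1.02, with 33 of 39 values negative. Without overlap, 3 members were higher (Cd68, Tyrobp and Ly6c2) and 22 lower in Flt3L Panc02 cells, against 13.8% and 12.9% of all genes. C1qa was at -1.25 ± 0.37 and Spp1 at -1.06 ± 0.29 (edgeR adjusted p = 0.0822 and 0.0671). Other lists differed in the same comparison, and their part in the result was not tested. Called lower were 2 of 6 fibroblast genes, 2 of 4 tumour and epithelial genes (Krt8 and Krt18) and 2 of 6 mast cell and basophil genes. Called higher were 4 of 6 plasmacytoid dendritic cell genes, 3 of 8 conventional dendritic cell genes and Epcam. The call of Tyrobp ended without Panc02 asGM1- replicate 2 and without replicate 3 of that group (highest adjusted p 0.0549), runs in which 0 members were called. The other 3 calls were each lost in 5 of the 6 fits with a library removed. The gate and tumour comparisons share libraries and are not independent of each other.

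**Figure D3:**
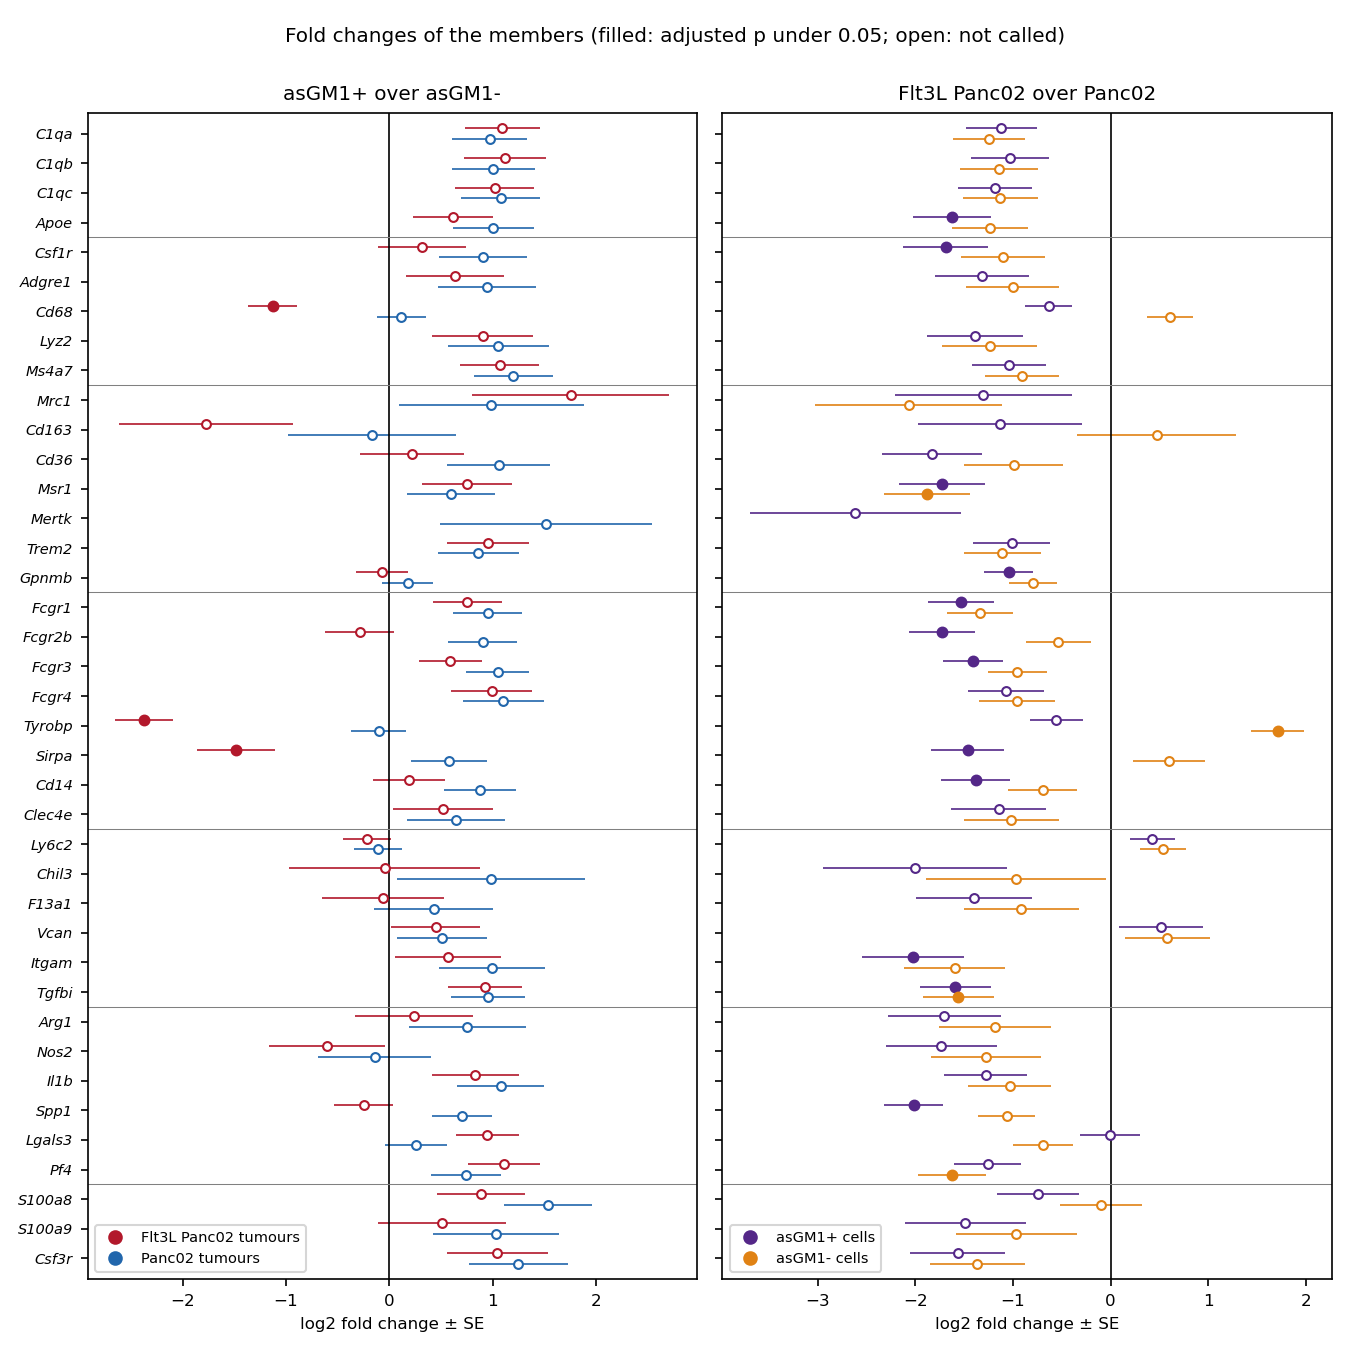
Log2 fold changes ± SE of the 39 members between gates (left) and between tumour types (right), with filled points for an edgeR adjusted p under 0.05. Most points lie right of 0 between gates and left of 0 between tumours, and Tyrobp, Cd68 and Sirpa lie left of 0 for the gates of Flt3L Panc02 tumours. Mertk is not drawn where the Flt3L Panc02 asGM1- group was at the floor.

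The test of whether the gate effect differs between tumour types called 1 member, Tyrobp, against 0.367% of all genes (0.0343% higher and 0.333% lower). Its log2 fold change between gates was lower by 2.27 in Flt3L Panc02 than in Panc02 tumours (interaction -2.27 ± 0.38, edgeR adjusted p = 0.0334). That call was lost in 10 of the 12 fits with a library removed (adjusted p up to 0.119). Sirpa, at -2.06 ± 0.53, and Cd68, at -1.24 ± 0.34, were not called (edgeR adjusted p = 0.119 and 0.136). The interaction was 0.12 ± 0.51 for C1qa, -0.15 ± 0.68 for Lyz2 and -0.20 ± 0.47 for Fcgr1, none of them called, and standard errors of this size do not show that the gates act alike.

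Co-variation over the libraries was described by correlating log2 CPM of each other member with C1qa. Over the 12 libraries, C1qc had r = 0.993 (rho 0.986), C1qb 0.989 (0.986), Lyz2 0.975 (0.93), Trem2 0.975 (0.881), Ms4a7 0.963 (0.916), Fcgr1 0.963 (0.916) and Apoe 0.957 (0.874). The permutation p of C1qc was 1e-05, the smallest that 100000 permutations can give, and 0.00704 after adjustment over all 20410 genes correlated with C1qa. Of 38 members, 19 passed an adjusted permutation p under 0.05, all with positive r, against 5.45% of all genes (3.87% positive). By Spearman's rho 8 passed, against 0.661%. The median r of the members was 0.785, and 0.016 over all genes. Passing was not limited to myeloid genes. The keratin gene Krt8 had r = 0.859, and Lum and Dcn of the fibroblast list had 0.834 and 0.789 (adjusted permutation p = 0.0136, 0.0333 and 0.0381). Epcam passed with r = -0.827 (adjusted permutation p = 0.0258), and the other genes tested of the tumour and fibroblast lists did not pass. Also outside the members, the platelet gene Itga2b and the neutrophil list's Acod1 and Cxcr2 had r of 0.943, 0.885 and 0.808 (adjusted permutation p = 0.00704, 0.00992 and 0.0373). Without the 2 libraries farthest in C1qa their r was 0.854, 0.799 and 0.571. The other genes tested of both lists were not called. Among them Ppbp, Gp1bb, Mmp9 and Il1r2 had r of 0.343, 0.587, 0.713 and 0.286 (adjusted permutation p = 0.561, 0.222, 0.0873 and 0.649).

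Fewer members passed when the libraries with extreme C1qa were left out, but that test was limited by its 100000 permutations. Panc02 asGM1+ replicate 1 and Flt3L Panc02 asGM1- replicate 2 lay farthest from the median of C1qa. Without them 0 members and 0 of all genes passed, with r of 0.984 for C1qc, 0.929 for Lyz2 and 0.863 for Csf1r. The median r of the members was then 0.67. With each group's mean removed, the r of C1qc, Lyz2 and Csf1r were 0.980, 0.972 and 0.892, and 0 members and 0 of all genes passed an exact test over the 1296 permutations within groups, whose smallest possible p is 0.000772. Because of that limit a single gene cannot pass after adjustment over all genes. Without the 2 libraries, the permutation p of C1qc was 1e-05, the smallest that 100000 permutations can give. After adjustment it was 0.051, the smallest adjusted p of that set, which C1qc shared with other genes. Neither test therefore bears on whether the relations hold there.

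**Figure D4:**
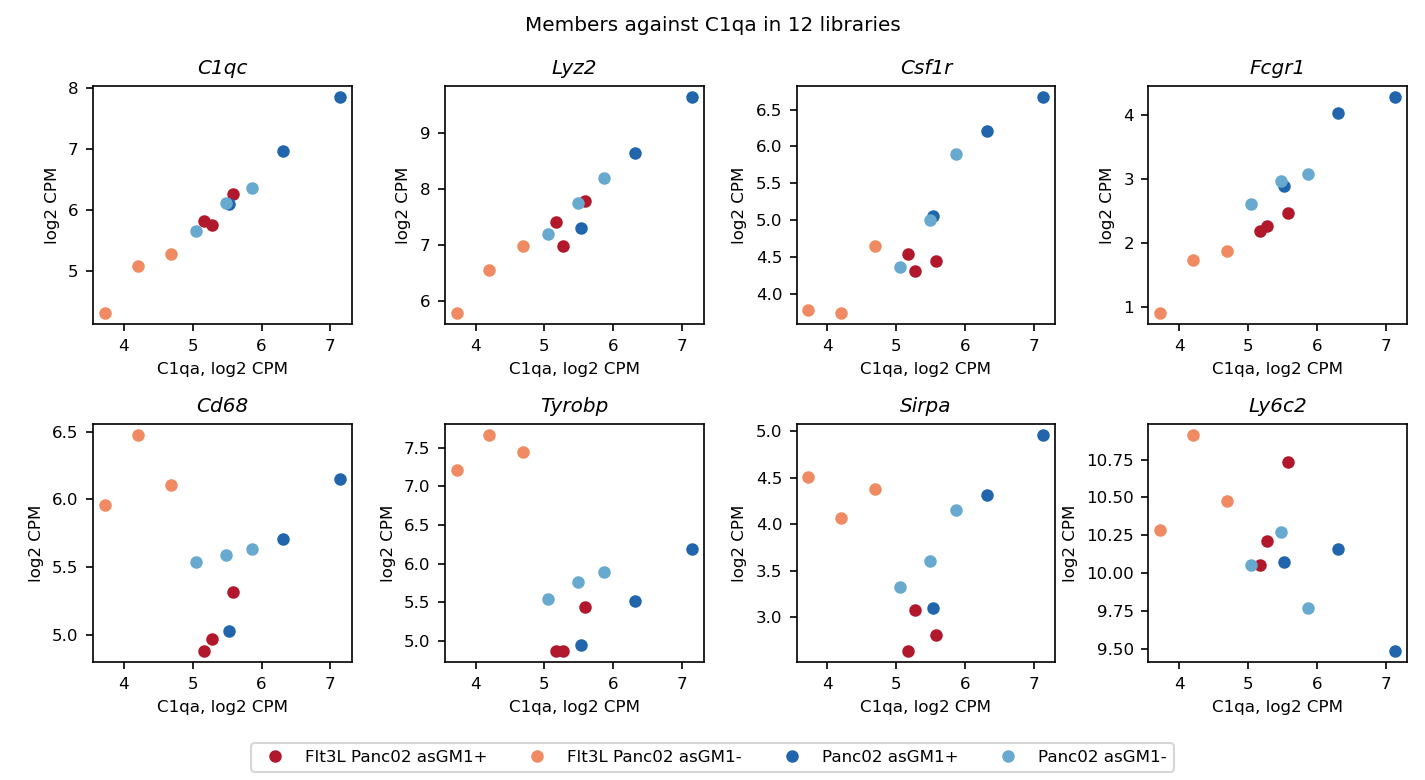
Log2 CPM of 8 members (y) against log2 CPM of C1qa (x), 1 point per library. C1qc, Lyz2, Csf1r and Fcgr1 rise with C1qa over all groups, whereas in Cd68, Tyrobp and Sirpa the 3 Flt3L Panc02 asGM1- libraries lie apart at the upper left.

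Tyrobp, Cd68 and Sirpa did not follow this axis over all 12 libraries. Plotted against C1qa, the 3 Flt3L Panc02 asGM1- libraries lay apart from the other 9, so no pooled r is given for them. Over the 6 Panc02 libraries the r of Tyrobp, Cd68 and Sirpa with C1qa was 0.578, 0.751 and 0.927. Over the 6 asGM1+ libraries it was 0.950, 0.984 and 0.967. Over the 6 asGM1- libraries, which include those apart, it was -0.784, -0.688 and -0.495. Over the 6 Flt3L Panc02 libraries, which include them too, it was -0.813, -0.755 and -0.871. With group means removed it was 0.874, 0.795 and 0.788. Negative r over the 6 Flt3L Panc02 libraries was not limited to them. Cd163, Gpnmb and Fcgr2b had -0.895, -0.386 and -0.378 there, while C1qc and Trem2 had 0.982 and 0.972. These are descriptions with no p. Ly6c2 had r = -0.649 and Lgals3 0.470, neither called (adjusted permutation p = 0.155 and 0.377). Nos2 and Vcan had r of 0.375 and -0.064. Arg1 and Chil3, at 0.582 and 0.543, were highest in Panc02 asGM1+ replicate 2 and not in replicate 1.

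Ratios to C1qa showed the same ordering without a fit. The ratio varied 1.54-fold over the 12 libraries for Trem2, 1.73-fold for Lyz2, 1.76-fold for Fcgr1, 1.83-fold for Ms4a7 and 1.88-fold for Apoe. It varied 2.30-fold for Csf1r, 9.59-fold for Cd68, 11.8-fold for Sirpa, 20.7-fold for Ly6c2 and 21.7-fold for Tyrobp. Within role groups, the median r over pairs was 0.977 for the C1q chains and Apoe (6 pairs), 0.783 for the Fc and pattern receptors (28 pairs) and 0.006 for the monocyte genes (15 pairs), against 0.659 over all 741 pairs of members. These pair values are descriptions without a p, and all pairs share the same 12 libraries.

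**Figure D5:**
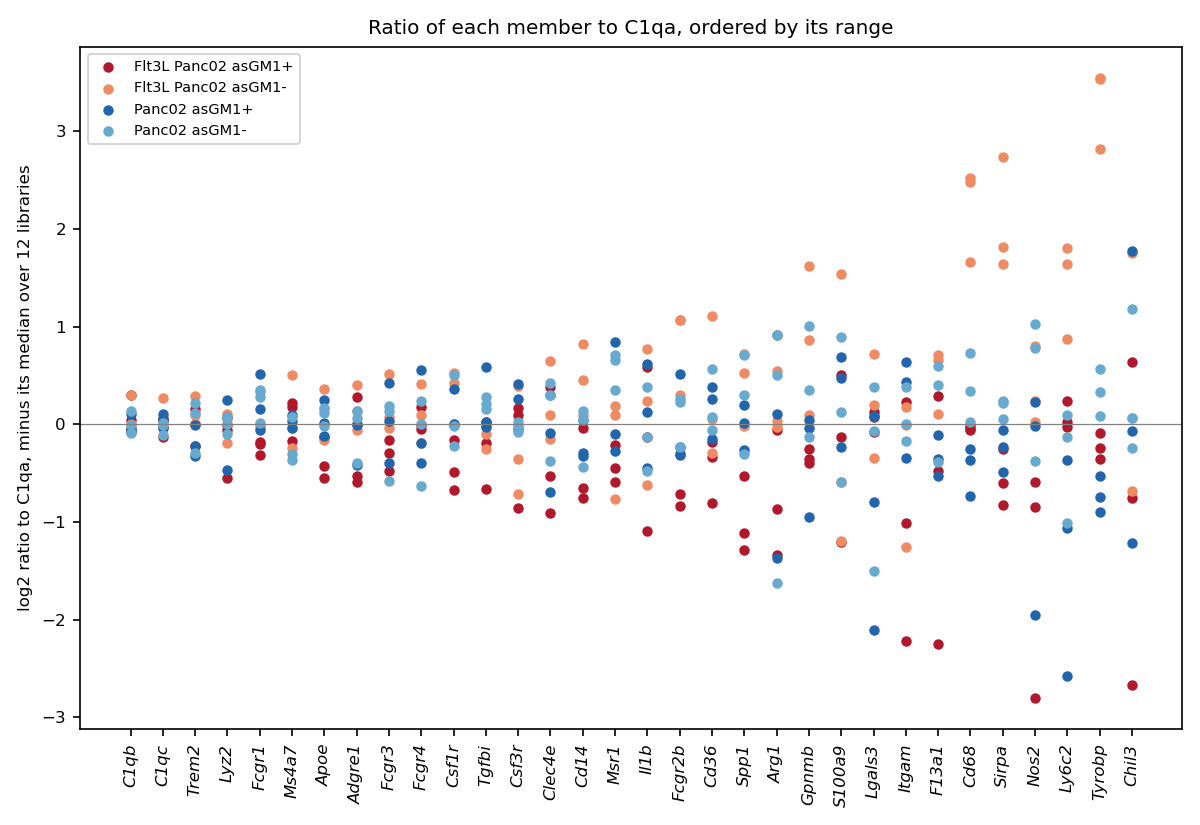
Log2 ratio of each member to C1qa in every library, minus its median over the 12 libraries, for the 32 other members with a median of at least 1 CPM, ordered by range. C1qb, C1qc and Trem2 are the tightest, and the Flt3L Panc02 asGM1- libraries lie highest for Cd68, Sirpa and Tyrobp.

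Summed over the 39 members, the libraries held 3068, 2747 and 3900 CPM in Flt3L Panc02 asGM1+, 3629, 2271 and 2905 CPM in Flt3L Panc02 asGM1-, 6158, 4992 and 3501 CPM in Panc02 asGM1+, and 3204, 3758 and 3321 CPM in Panc02 asGM1- cells. Ly6c2 and Lgals3 made up 62.7% to 69.6% of that sum in the Flt3L Panc02 libraries and 22.1% to 58.2% in the Panc02 libraries. Without both genes the sum was 1088 ± 101 CPM (SD, n = 3) in Flt3L Panc02 asGM1+, 972 ± 211 CPM in Flt3L Panc02 asGM1-, 3070 ± 1670 CPM in Panc02 asGM1+ and 1673 ± 258 CPM in Panc02 asGM1- cells. No test was made of these sums.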

How the data were processed

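The labels' protocols name TRIzol extraction and, for libraries, the TruSeq mRNA and SMARTer low input kits. The submitters' processing notes list HISAT2, StringTie and build mm39. Their versions, the annotation and any use of strand are not given in the sources used. The values the authors deposited are estimated counts (expected counts), whole numbers already. One sequenced fragment was estimated from small values to be worth 2.667 to 2.75 counts, so the floor of 3 fragments is 8.1255 counts at a step of 2.7085. That floor reflects counting error alone, because PCR copies of a molecule are counted separately.

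Counts were analysed with edgeR 4.0.16 (R 4.3.3): TMM factors, filterByExpr by group (20411 genes kept), and 1 quasi-likelihood model of 4 group means over 12 libraries. Calls used a Benjamini-Hochberg adjusted p under 0.05 over all genes. Each SE is the unshrunken fold change over the root of its F statistic, and printed fold changes include edgeR's prior count. Correlations with C1qa used log2 CPM, 100000 two-sided permutations (Python 3.11.15) and adjustment over all genes, in place of the planned adjustment over the members. Permutations over 12 libraries ignore the groups. Exon lengths came from GENCODE vM21 on another build, and no coordinates of mm39 are given. Alternatives used DESeq2 1.42.0 and limma 3.58.1. The edgeR and permutation tests were tested on simulated data. The members, lists and role groups were chosen with earlier results of these data known. All members could be named, and of other lists up to 4 genes called by smallest p, or the most abundant. Cell type markers of the check, the tested neutrophil genes and genes that failed the filter are named too, some after their values were seen. One result of a further list is not reported here.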

Additional observations from a re-analysis of the deposited data

Results flagged for a closer look

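Among the listed genes, the gate effect differed between tumour types for a pair by the interaction test, which called 0.367% of all genes. Tyrobp, with a log2 fold change between asGM1+ and asGM1- cells of -2.37 ± 0.28 in Flt3L Panc02 tumours and -0.10 ± 0.27 in Panc02 tumours, had an interaction of -2.27 ± 0.38 (edgeR adjusted p = 0.0334). The Tyrobp call was lost in 10 of the 12 fits with a library removed. Ctsl, one of the further macrophage genes, for which such fits were not examined, had an interaction of -2.99 ± 0.43 (edgeR adjusted p = 0.0238). Its mean was 7.29 CPM in asGM1+ and 80.9 CPM in asGM1- cells of Flt3L Panc02 tumours, and 19.7 CPM in asGM1+ and 27.5 CPM in asGM1- cells of Panc02 tumours. The plasmacytoid dendritic cell list summed to 110 CPM in asGM1+ and 791 CPM in asGM1- cells of Flt3L Panc02 tumours, and to 39.6 CPM in asGM1+ and 201 CPM in asGM1- cells of Panc02 tumours. Its part in both results was not tested.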

How the results depend on the processing

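Counts of called members were equal with DESeq2 size factors and upper quartile factors. The stricter filter, which left 25 members tested, called 11 between tumour types in asGM1+ cells, and dividing by the fragment step called 14 there and 5 in asGM1- cells. That last setting and the sum without Ly6c2 and Lgals3 were chosen after seeing the data. With DESeq2 size factors and upper quartile factors, summed levels moved by less than their SD. In the order of gates in Flt3L Panc02 and in Panc02 tumours, tumour types in asGM1+ and in asGM1- cells, and the interaction, the counts were 3, 0, 12, 4 and 1. The DESeq2 test called 10, 3, 23, 15 and 3. Limma-voom called 4, 4, 24, 12 and 3. With no filter, 2, 0, 4, 1 and 0 were called. A fit to the compared libraries alone called 4, 0, 0 and 10. Leaving out both Panc02 libraries numbered 1 gave 0, 1, 1 and 0 for the comparisons that use them. Leaving out each library in turn gave 1 to 4, 0 to 2, 1 to 25, 0 to 3, and 0 to 4.

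Whether replicate numbers pair the samples is not given by the labels. Same-numbered gates of a tumour correlated at 0.054, 0.104 and 0.022 in Flt3L Panc02 and at 0.284, 0.095 and 0.166 in Panc02, where different numbers gave -0.21 to 0.057 and every sample correlated best with its own number, a hint from the data. In Flt3L Panc02 this did not hold for every sample. Not all pairs passed 0.1, so the fit without the pairing was kept. With the replicate number as a block, 11, 1, 11, 2 and 2 members were called. Of 3206 alternative fold changes, 126 changed sign, in 0 of which either value was called. The 19 correlations with C1qa became 0 without the 2 extreme libraries and 0 with group means removed, where the number of permutations limits the adjusted p. A prior count of 5 left 19. The causes of these shifts were not tested. Members near the floor (Mertk, Mrc1) are limited by depth.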

Other observations

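Genes outside the lists were ranked by r with C1qa only if they had a symbol and a mean log2 CPM above a set cut-off. Of these, the genes that followed C1qa most closely over the 12 libraries were Cxcl9, a T cell-attracting chemokine made by macrophages (r = 0.979), and C3ar1, the receptor for complement fragment C3a (0.978). Next were Gatm, an enzyme of creatine synthesis (0.960), Slc11a1, a phagosomal metal transporter (0.959), and Cxcl16, a membrane-bound chemokine (0.957). All of these were chosen after their values were seen. Without the 2 libraries of most extreme C1qa, the r of Cxcl9, C3ar1, Gatm, Slc11a1 and Cxcl16 were 0.945, 0.947, 0.914, 0.907 and 0.899. No adjusted permutation p was then under 0.05 (the smallest was 0.051, with Cxcl9 at the lowest p that 100000 permutations can give).

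Of 6 mast cell and basophil genes, 1 was called in asGM1+ cells between tumour types, the growth factor receptor gene Kit, against 6.25% of all genes (4.2% lower). The other 5 were not called, and over the 6 genes 2 log2 fold changes were positive and 4 negative. Kit differed from others of this list. Cpa3 had means of 2.74 CPM in Flt3L Panc02 asGM1+ and 2.85 CPM in Panc02 asGM1+ libraries, and 0.980 CPM in Panc02 asGM1- libraries. The mean of Kit was higher in Panc02 asGM1- (47.9 CPM) than in Panc02 asGM1+ libraries (21.7 CPM). In asGM1+ cells Kit had 5.76, 4.21 and 3.07 CPM in Flt3L Panc02 libraries, against 26.4, 20.6 and 18.1 CPM in Panc02 libraries. It was lower in Flt3L Panc02 tumours (log2 fold change -2.32 ± 0.26, edgeR adjusted p = 0.00347).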
